A study of Mus musculus with 16 samples.

Results

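The 9 genes described here carry out or control the making of testosterone in Leydig cells, the steroid-producing cells that lie between the seminiferous tubules: Lhcgr, Nr5a1, Star, Cyp11a1, Fdx1, Hsd3b1, Hsd3b6, Cyp17a1 and Hsd17b3. They were chosen by name, with earlier results of these data known, and all 9 were among the 13101 genes of the deposited table. Their RNA was measured by polyA-enriched bulk RNA-seq in 16 libraries of sorted male germ cell fractions: spermatogonia (the mitotic cells), MI spermatocytes (in the first meiotic division), MII spermatocytes (in the second) and spermatids (the haploid cells). Each fraction had 2 wild-type and 2 Tex10-deficient libraries, from C57BL/6J males aged 8 weeks. Tex10 deficiency was given by the genotype Tex10f/-; Stra8iCre, in which Cre recombinase is driven by the promoter of the germ cell gene Stra8. The sources used here do not give the sorting method.

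Testosterone synthesis starts when luteinizing hormone binds its receptor on the Leydig cell and raises cyclic AMP. Cholesterol is then carried to the inner mitochondrial membrane, cut to pregnenolone there, and converted to testosterone by enzymes of the endoplasmic reticulum. Leydig cells are the site of this pathway in the testis. In bulk libraries, a different number of cells of a type and a different amount of RNA per cell cannot be told apart.

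Levels are FPKM, that is fragments scaled by transcript length and by library. Only FPKM were used, so read depth is unknown and no counting interval is given. Between 10044 and 12394 genes reached 1 FPKM in a library. The targeted gene, Tex10, averaged 52.7 FPKM in wild-type spermatogonia, 60.3 in MI, 20.6 in MII and 107 in spermatids, against 16.3, 12.7, 7.70 and 33.3 FPKM in the Tex10-deficient groups, with no overlap between genotypes in any fraction. Groups follow the sample titles. A second label, the cell type field, disagrees with the title in 6 of 8 libraries of Tex10-deficient cells and in 0 of 8 of the wild type. By rank correlation over genes, the closest wild-type library matched the title for 8 of those 8 and the field for 2 of 8, and results that turn on the field are given with both. In the MII fraction, spermatocyte markers were present but all 8 were called lower than in MI in each genotype, and their sum was 262 and 716 FPKM in the wild type against 2370 and 2012 FPKM in MI. That sum was 5499 and 5119 FPKM in wild-type spermatids, so the list is not particular to spermatocytes. Spermatid markers summed to 71.9 and 44.6 FPKM in wild-type MI and 619 and 526 FPKM in MII, with 4 of 7 called higher and 0 lower. The labels do not tie the replicates to separate animals, and the p-values rest on a spread between libraries that may be technical.

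The bases upstream of the start site are shown for 4 genes, because their RNA moved together between fractions and each window holds a short match to a binding sequence known for steroidogenic factors. RefSeq promoter entries (GRCm38.p6) were matched for 6 of the 9 genes, in 7 windows of 250 bases. Capitals mark AGGTCA, the core of the sequence bound by nuclear receptors such as the product of Nr5a1. They also mark AGATAA, or its reverse complement, which transcription factors of the zinc finger family of Gata4 bind. Other sequences that this family binds were not searched and are not marked. The windows, written 5′ to 3′ on the gene's own strand, are Cyp11a1 (chr9:58014702-58014951, plus strand, the window inside the gene's span of a pair of Cyp11a1 windows), Lhcgr (chr17:88792015-88792264, minus strand), Hsd3b1 (chr3:98859795-98860044, minus strand) and Hsd3b6 (chr3:98814444-98814693, minus strand).

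Cyp11a1: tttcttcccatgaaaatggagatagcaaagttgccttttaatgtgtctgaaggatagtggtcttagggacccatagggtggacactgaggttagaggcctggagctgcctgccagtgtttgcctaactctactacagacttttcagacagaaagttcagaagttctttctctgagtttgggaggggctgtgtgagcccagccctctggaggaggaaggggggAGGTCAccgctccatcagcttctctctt
Lhcgr: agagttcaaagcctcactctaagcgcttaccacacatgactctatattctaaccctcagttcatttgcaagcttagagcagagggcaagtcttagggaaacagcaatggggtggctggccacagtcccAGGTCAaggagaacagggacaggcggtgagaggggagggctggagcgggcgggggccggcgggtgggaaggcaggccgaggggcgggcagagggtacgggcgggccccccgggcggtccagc
Hsd3b1: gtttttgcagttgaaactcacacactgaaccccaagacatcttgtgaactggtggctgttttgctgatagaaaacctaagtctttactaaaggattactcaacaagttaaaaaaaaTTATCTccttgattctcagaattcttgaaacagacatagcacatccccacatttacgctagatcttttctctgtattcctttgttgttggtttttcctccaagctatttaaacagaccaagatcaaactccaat
Hsd3b6: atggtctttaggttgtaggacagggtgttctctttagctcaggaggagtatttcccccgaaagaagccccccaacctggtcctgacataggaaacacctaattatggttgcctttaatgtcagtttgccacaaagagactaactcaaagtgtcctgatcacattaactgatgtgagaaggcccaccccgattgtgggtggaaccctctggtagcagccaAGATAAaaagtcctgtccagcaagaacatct

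AGGTCA began 28 bases upstream of the start in the Cyp11a1 window and 122 bases upstream in Lhcgr. AGATAA began 134 bases upstream in Hsd3b1, on the other strand, and 31 bases upstream in Hsd3b6. These motifs are common: of 32851 windows of the same length, 14.0% held AGGTCA and 9.99% held AGATAA on either strand. The longer forms AAGGTCA (4.08% of windows), CAAGGTCA (1.33%) and AAGGNCA (17.5%) and TATAAA (12.4%) were searched too and were found in 0 of the 7 windows. The motifs were chosen after the sequences had been seen, and a match is a description of the letters, not of a bound site.

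All 9 genes were highest in an MII library, and for 8 of them each of the 4 MII libraries lay above all 12 libraries of the other fractions. The share of all genes with such an order was not counted. From MI to MII 30.0% of all tested genes were called higher in the wild type and 31.6% in Tex10 deficiency. No member was listed at 0 in any library, and 21 of the 144 values were under 1 FPKM. The 9 values of a library summed to 556 and 508 FPKM in wild-type MII and to 563 and 796 FPKM in Tex10-deficient MII. In the other fractions the sum ran from 18.2 to 56.9 FPKM, apart from 144 FPKM in Tex10-deficient spermatids replicate 2. The ratio of the mean over the 4 MII libraries to the mean over the other 12 was 26.8 for Nr5a1, 20.3 for Hsd3b6, 19.8 for Hsd3b1, 15.8 for Cyp11a1, 14.7 for Lhcgr, 14.6 for Hsd17b3, 11.7 for Cyp17a1 and 5.87 for Star. Fdx1 stood apart with a ratio of 1.97.

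**Figure D1:**
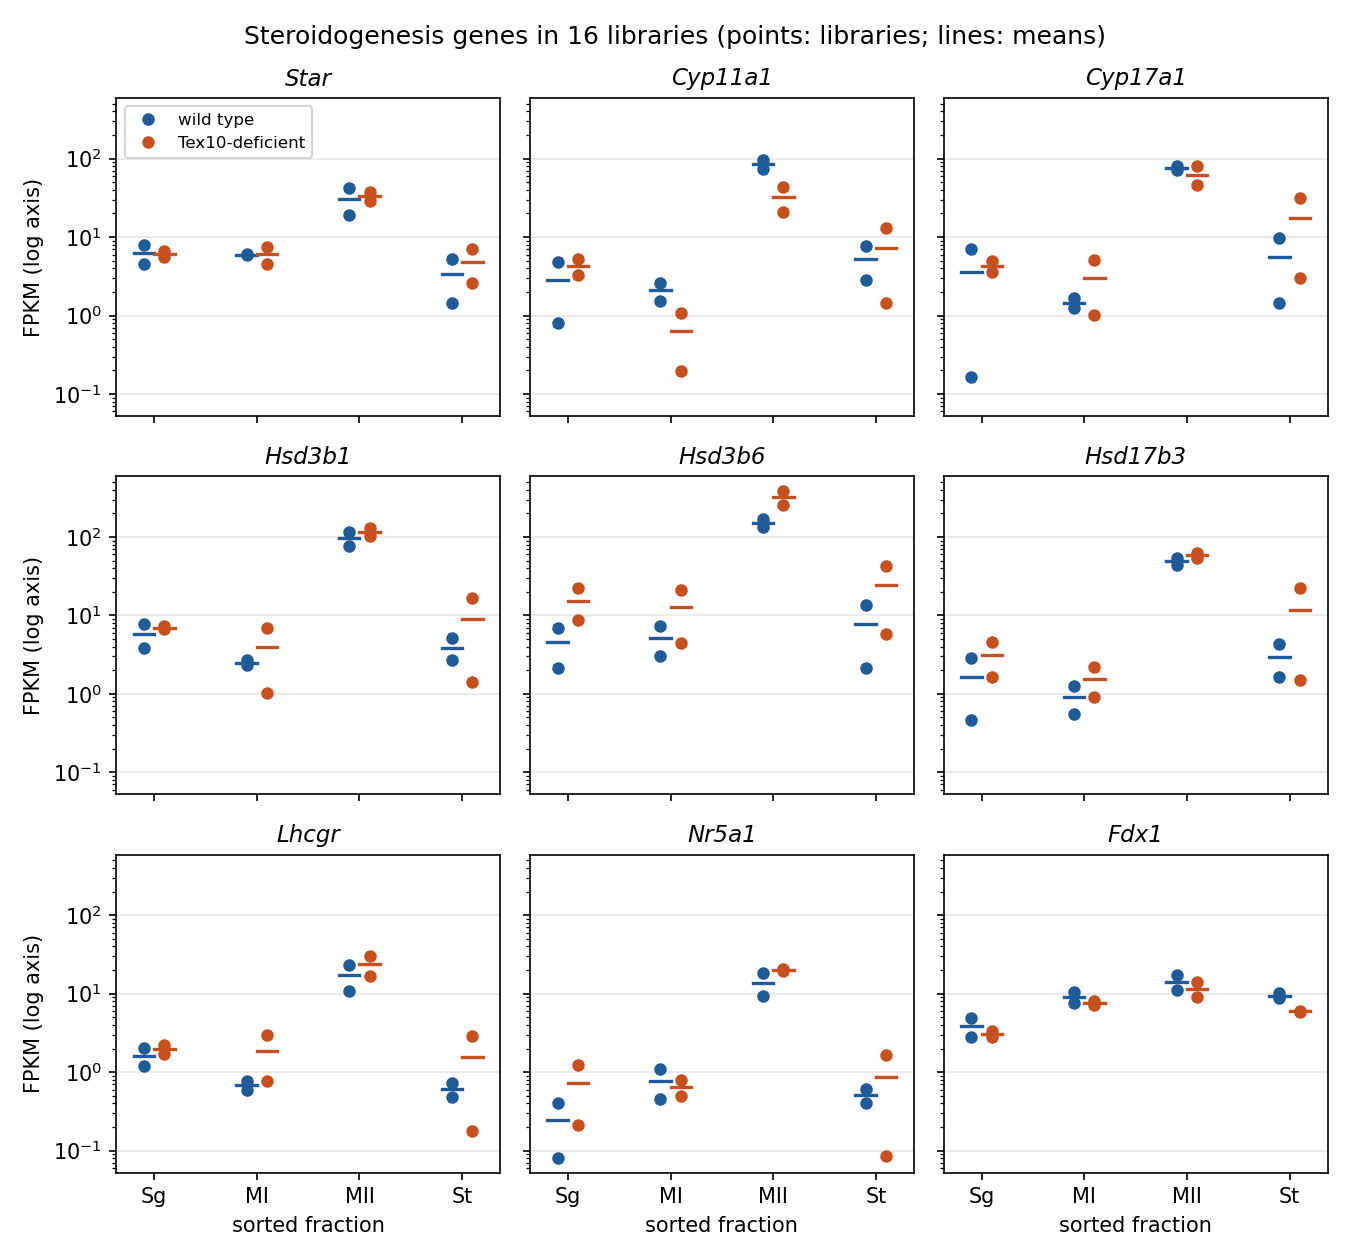
FPKM (log axis) of the 9 genes in spermatogonia (Sg), MI spermatocytes (MI), MII spermatocytes (MII) and spermatids (St); each point is 1 library, lines are means of 2 libraries, blue is wild type and orange Tex10-deficient. The MII points lie above all others in 8 panels, and in the Fdx1 panel they overlap the MI and spermatid points.

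The hormone receptor and the master regulator were low outside MII. Lhcgr (chr17:88716481-88791990), the luteinizing hormone receptor, was at 10.8 and 23.3 FPKM in wild-type MII and at 17.0 and 30.3 FPKM in Tex10-deficient MII. In the other 12 libraries Lhcgr ran from 0.179 to 2.94 FPKM with a median of 0.993 FPKM. Nr5a1 (chr2:38692656-38714542), which encodes steroidogenic factor 1, the nuclear receptor that switches on most of the pathway, was at 18.2 and 9.28 FPKM in wild-type MII and at 20.5 and 19.6 FPKM in Tex10-deficient MII. Elsewhere Nr5a1 ran from 0.0802 to 1.67 FPKM and reached 1 FPKM in 3 of 12 libraries. The antisense gene Nr5a1os overlaps its exons, and the sources used here do not say whether counting used strand, so reads of the pair cannot be told apart.

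Star (chr8:25806555-25815982) encodes the carrier that moves cholesterol to the inner mitochondrial membrane, the rate-limiting step of acute hormone output. It measured 41.8 and 19.0 FPKM in wild-type MII and 37.9 and 28.8 FPKM in Tex10-deficient MII. Outside MII, Star lay between 1.46 and 8.05 FPKM. The wild-type MII pair was wide (30.4 ± 16.1 FPKM, SD, n = 2).

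Cyp11a1 (chr9:58006411-58027023), the side chain cleavage enzyme that makes pregnenolone, was at 97.4 and 72.8 FPKM in wild-type MII. In Tex10-deficient MII it was at 21.1 and 43.2 FPKM, both below both wild-type values. The remaining libraries ran from 0.194 to 13.0 FPKM. The noncoding gene Gm17322 overlaps Cyp11a1 exons on the same strand, and the sources used here do not say how shared reads were assigned.

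Fdx1 (chr9:51943306-51963556) encodes ferredoxin 1, which passes electrons to mitochondrial P450 enzymes, Cyp11a1 among them, and has roles in many cell types. It did not follow the other 8 genes closely. Fdx1 was at 2.78 and 4.88 FPKM in wild-type spermatogonia, 10.6 and 7.72 in MI, 11.1 and 17.3 in MII and 10.1 and 8.73 in spermatids. The Tex10-deficient values were 2.80 and 3.31 FPKM, 8.00 and 7.23, 8.94 and 14.1, and 5.89 and 6.03, in the same order. Spermatogonia were the lowest fraction in both genotypes. Within each genotype both MII values lay above both MI and both spermatid values, in the wild type by 11.1 against 10.6 FPKM for MI. Over both genotypes together MI, MII and wild-type spermatids overlapped.

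The pair of 3-beta-hydroxysteroid dehydrogenases measured here, which turn pregnenolone and its relatives into the next intermediates of the pathway, had the highest mean levels of the 9 in MII of both genotypes on this per-length scale, although Hsd3b1 lay below Cyp11a1 and Cyp17a1 in wild-type MII replicate 1. Hsd3b6 (chr3:98805504-98814443), the form typical of adult Leydig cells, was at 167 and 135 FPKM in wild-type MII and at 255 and 388 FPKM in Tex10-deficient MII. Hsd3b1 (chr3:98852194-98859794) was at 76.2 and 115 FPKM and at 104 and 129 FPKM in the same groups. The Hsd3b6 groups did not overlap and the Hsd3b1 groups did. Other fractions held 2.14 to 42.4 FPKM of Hsd3b6 and 1.01 to 16.8 FPKM of Hsd3b1. Both genes lie side by side on the same strand, and their longest coding transcripts are 84.2% identical over 1539 aligned bases with a longest identical run of 72 bases, so the split of reads between them is uncertain.

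Cyp17a1 (chr19:46667165-46673172), the hydroxylase and lyase that commits the pathway to androgens, was at 80.1 and 71.2 FPKM in wild-type MII and at 45.7 and 79.9 FPKM in Tex10-deficient MII, with overlap. Elsewhere it ran from 0.165 to 31.8 FPKM. Hsd17b3 (chr13:64058266-64089230), which makes testosterone from androstenedione, was at 53.3 and 44.3 FPKM and at 53.9 and 62.9 FPKM in the same groups, and from 0.462 to 22.2 FPKM elsewhere. In wild-type MII the order of mean levels was Hsd3b6, Hsd3b1, Cyp11a1, Cyp17a1, Hsd17b3, Star, Lhcgr, Fdx1 and Nr5a1. Neighbours from Hsd3b1 to Cyp17a1 and from Star to Nr5a1 had overlapping pairs of values.

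From MI to MII spermatocytes 8 of the 9 genes rose in the wild type, where 30.0% of all 13099 tested genes were called higher (limma on log2(FPKM + 1), Benjamini-Hochberg adjusted p under 0.05). The median log2 change was 4.71 for the 9 genes and 0.05 for all tested genes. Cyp17a1 rose by 4.96 (SE 0.98, adjusted p 0.00075), Cyp11a1 by 4.81 (SE 0.73, adjusted p 0.00011) and Nr5a1 by 3.01 (SE 0.45, adjusted p 9.7e-05). Star rose least among those called, by 2.07 (SE 0.50, adjusted p 0.0031). The log2 change of Fdx1 was 0.57 (SE 0.32) and missed the threshold with an adjusted p of 0.15. Tex10-deficient cells gave the same count, 8 of 9 higher, against 31.6% of all genes, with a median of 4.13. There the changes ran from 2.30 for Star to 4.87 for Hsd3b1, and that of Fdx1 was 0.51 with an adjusted p of 0.19.

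**Figure D2:**
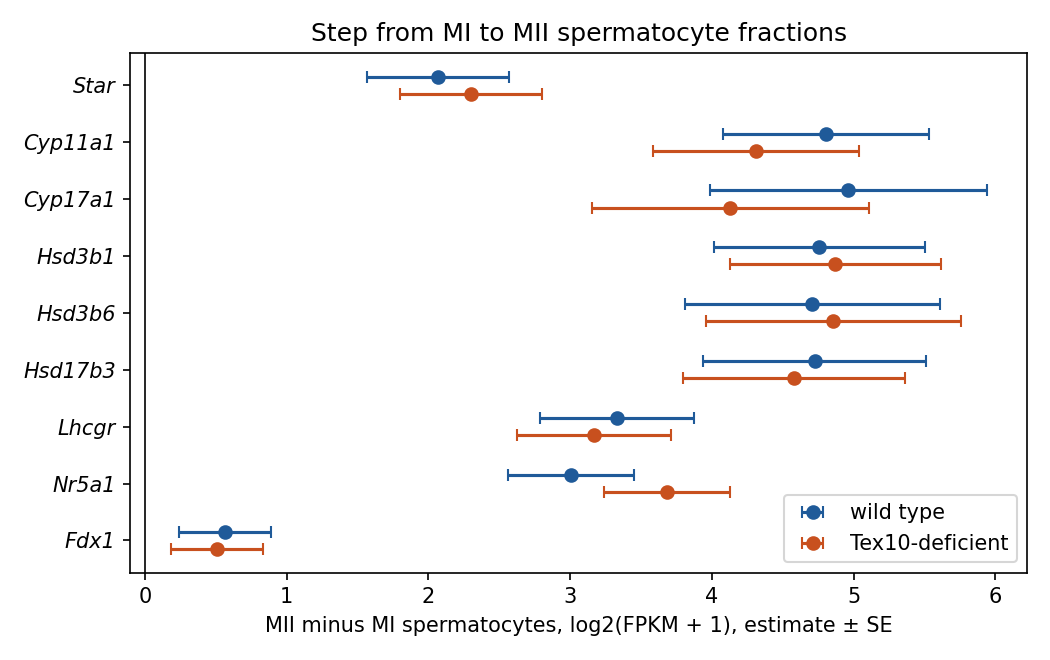
Log2 change of each gene from MI to MII spermatocytes on the log2(FPKM + 1) scale, wild type in blue and Tex10-deficient in orange; points are limma estimates and bars are ± SE, from 2 libraries a group. Estimates for 8 genes lie between 2.07 and 4.96, and those of Fdx1 at 0.57 and 0.51.

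The size of that step was compared between genotypes by a test of the difference itself, and no gene passed (limma, 0 of 9 called and 0 at an unadjusted p under 0.05, with 0% of all genes called). The largest difference was that of Cyp17a1, -0.83 with an SE of 1.38.

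The fraction before MI and the one after MII gave the other side of the pattern. Between spermatogonia and MI, 1 of 9 genes was called higher in each genotype, where 26.3% of wild-type and 26.5% of Tex10-deficient tests were called higher. That gene was Fdx1, which rose by 1.09 in both (SE 0.32, adjusted p 0.012 for the wild type and 0.013 for Tex10 deficiency). The wild-type call was lost without spermatogonia replicate 1 (change 0.77, adjusted p 0.13) or MI replicate 1 (0.89, adjusted p 0.092), and the Tex10-deficient one without its own spermatogonia replicate 1 (adjusted p 0.070) or MI replicate 1 (change 1.03, adjusted p 0.066).

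From MII to spermatids 8 of 9 wild-type and 9 of 9 Tex10-deficient changes were falls, against 35.0% and 36.9% of all genes called lower. Hsd3b6 fell by 4.48 in the wild type and Hsd3b1 by 4.32. The Tex10-deficient count was 5 without spermatids replicate 1, when only the high replicate 2 stood for that group. The calls lost there were those of Cyp11a1 (-1.16, adjusted p 0.15), Cyp17a1 (-0.90, adjusted p 0.44), Hsd17b3 (-1.35, adjusted p 0.068) and Fdx1 (-0.80, adjusted p 0.097). Cyp17a1 also lost its call without MII replicate 1 (adjusted p 0.056) or replicate 2 (0.16), Cyp11a1 without MII replicate 2 (0.071), and Fdx1 without MII replicate 2 (0.25) or spermatids replicate 2 (0.083).

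Compared directly with spermatogonia, MII was higher for 9 of 9 genes in both genotypes, against 29.8% and 25.2% of all genes. Without wild-type MII replicate 1, the change of Star in the wild type was 1.50 with an adjusted p of 0.053. In Tex10-deficient cells Cyp11a1 missed the threshold without spermatogonia replicate 1 (2.33, adjusted p 0.069) or MII replicate 2 (2.10, adjusted p 0.087), and Cyp17a1 without spermatogonia replicate 2 (3.38, adjusted p 0.062) or MII replicate 2 (3.16, adjusted p 0.063).

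Other genes of the Leydig cell and of the steroid pathway were counted in the same wild-type step from MI to MII. All 5 measured other Leydig cell markers rose, with a median log2 change of 4.48. Insl3, the hormone most used to mark Leydig cells, went from 10.6 and 5.09 FPKM to 918 and 463 FPKM. The prolactin receptor gene Prlr went from 10.9 and 7.46 FPKM to 198 and 244 FPKM, and Vcam1, an adhesion molecule, from 3.90 and 1.12 to 73.5 and 68.3. Insl3 overlaps exons of Jak3 on the same strand, so shared reads cannot be assigned here.

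Cholesterol supply moved in part. Of 11 measured genes of cholesterol uptake, storage and transport, 8 rose and 0 fell, with a median of 1.66. Lipa, the lysosomal lipase that frees cholesterol from its esters, rose by 3.10 (SE 0.38, adjusted p 2.7e-05). Of 18 genes of cholesterol synthesis 10 rose and 1 fell, with a median of 1.07. Msmo1 and Nsdhl, which act in late sterol demethylation, rose by 2.51 and 2.23. Fdft1, the squalene synthase, fell by 1.81 (SE 0.39, adjusted p 0.0014). Both lists had fallen in the step before, from wild-type spermatogonia to MI. There 8 of the 11 uptake genes were called lower and 1 higher, with a median of -1.37. Of the 18 synthesis genes 11 were called lower and 1 higher, with a median of -1.29. The 9 steroid genes had a median of -0.10 in that step with 0 called lower, and 25.7% of all tested genes were called lower.

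The electron carriers split. Of 6 measured partners 4 rose and 1 fell. Fdxr, the reductase that feeds Fdx1, rose by 2.42 (SE 0.29, adjusted p 2.5e-05) while Fdx1 itself was not called, and Por, which feeds Cyp17a1, rose by 2.61 (SE 0.33, adjusted p 3.3e-05). Cyb5a, which aids the lyase step of Cyp17a1, rose by 1.73 (SE 0.45, adjusted p 0.0050), a call lost without wild-type MII replicate 1 (adjusted p 0.080). Fdx1l, the second ferredoxin, fell by 0.86 (SE 0.34), with an adjusted p of 0.046 that missed the threshold in 15 of 28 alternatives.

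Of 8 other measured steroid enzymes 6 rose and 0 fell. Hsd17b11 rose by 3.41 and H6pd, which supplies NADPH in the endoplasmic reticulum, by 4.24. Of 14 regulators and signalling genes 9 rose and 2 fell, with a median of 3.39. Nr2f2 and Pdgfra, both of which mark interstitial cells and their precursors, rose by 3.68 and 4.72. Pde8a, a phosphodiesterase that removes cyclic AMP, fell by 2.26 and Crem, a cyclic AMP-responsive regulator that germ cells use heavily, fell by 1.64.

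Markers of other somatic cells also rose in MII, and their part in these results was not tested. Of 10 macrophage markers 10 were called higher than in MI for the wild type and 9 for Tex10 deficiency, and their sum was 4.01 and 3.72 FPKM in wild-type MI and 317 and 613 FPKM in wild-type MII. In wild-type spermatogonia the macrophage sum was 328 and 560 FPKM, and the 9 steroid genes summed to 42.9 and 18.2 FPKM. From spermatogonia to MII 0 of 10 macrophage markers and 9 of 9 steroid genes were called in each genotype. Of all tested genes 47.2% in the wild type and 42.4% in Tex10 deficiency were called in that comparison. Sertoli markers (6 of 10 in the table) summed to 9.03 and 13.5 FPKM in wild-type MI and 80.9 and 109 FPKM in MII. Myoid and endothelial markers (6 of 9 in the table) summed to 81.6 and 43.1 FPKM in wild-type spermatogonia, 12.0 and 4.77 FPKM in MI and 174 and 110 FPKM in MII. The Leydig list itself had 7 of 8 in the table. Its sum was 1277 and 809 FPKM in wild-type MII and 1258 and 930 FPKM in Tex10-deficient MII. Apart from Insl3 these 7 are among the 9 steroid genes, so the list is not a separate measure of them. Insl3 alone was at 918 and 463 FPKM in wild-type MII. Of the macrophage list C1qc was listed at 0 in both wild-type MI libraries, C1qc, Cd68 and Tyrobp in both wild-type spermatid libraries, and C1qa and Tyrobp in both Tex10-deficient ones. Des, a myoid marker, was listed at 0 in both wild-type spermatid libraries, and no listed Leydig or Sertoli marker in the table was at 0 in both libraries of any group.

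**Figure D3:**
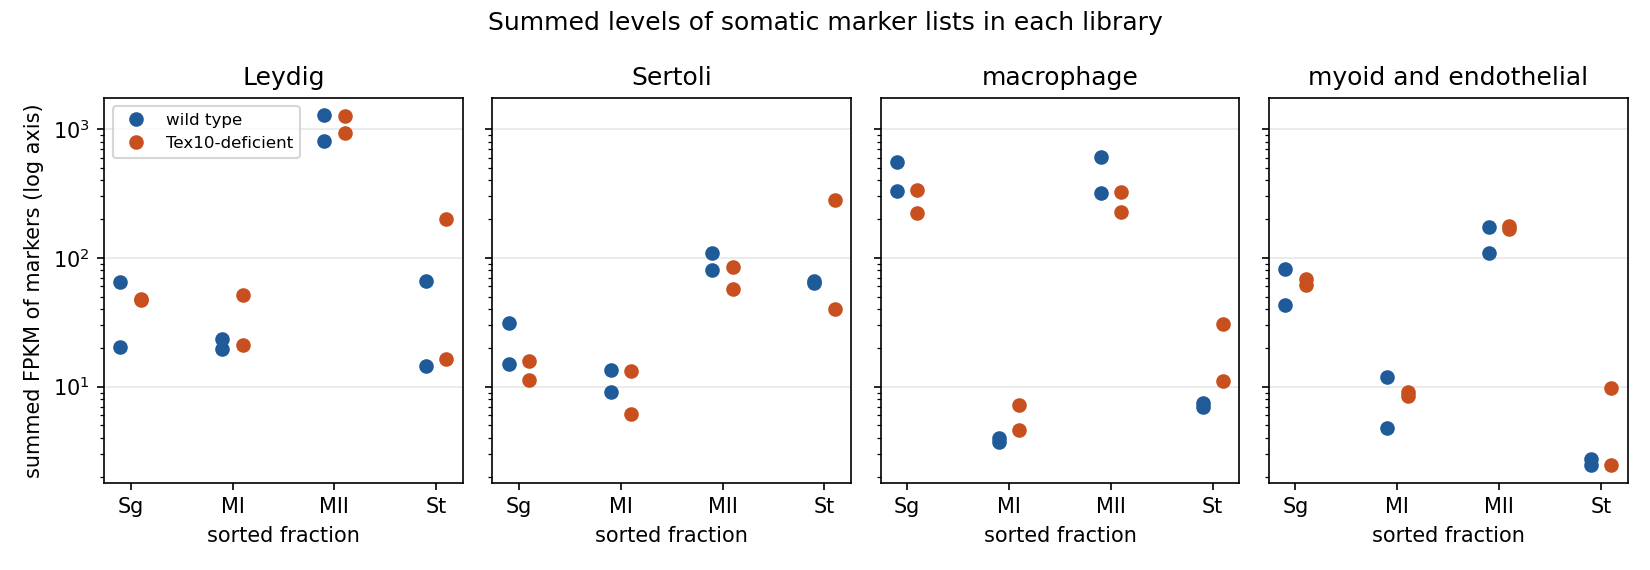
Summed FPKM (log axis) of 4 somatic marker lists in each library by sorted fraction, wild type in blue and Tex10-deficient in orange. Leydig markers peak in MII at 809 to 1277 FPKM, and all of those measured but Insl3 are among the 9 genes described. Macrophage markers are as high in spermatogonia as in MII, and Tex10-deficient spermatids replicate 2 is raised in the Leydig and Sertoli panels.

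Tex10-deficient spermatids replicate 2 held more of these RNAs than its partner. It was the highest library outside MII for Cyp11a1, Cyp17a1, Hsd3b1, Hsd3b6, Hsd17b3 and Nr5a1. Hsd3b6 was at 42.4 FPKM there against 5.78 in replicate 1, Cyp17a1 at 31.8 against 3.04, Hsd17b3 at 22.2 against 1.51 and Insl3 at 108 against 6.14. Fdx1 was alike in the pair, at 5.89 and 6.03 FPKM. The Sertoli sum of this library was 280 FPKM against 39.8 FPKM in replicate 1, and its macrophage sum was 30.6 against 11.1 FPKM. Their part in the values was not tested.

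Between genotypes, none of the 9 genes passed the threshold. In limma 0 of 9 were called in spermatogonia (0.0153% of all genes), in MI (0.168%), in MII (0.00763%) and in spermatids (0%), and 0 of 9 reached an unadjusted p under 0.05 in any of these. Of all genes 6.60%, 5.84%, 13.3% and 2.17% reached it, in the same order. Averaged over the 4 fractions 0 of 9 were called (0.0992% of all genes). An unadjusted p under 0.05 was reached by 1 of 9, a share near that of all genes (1437 of 13099). A test of whether the genotype effect differs between fractions called 0 of 9, with 0% of all genes.

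Hsd3b6 was the gene below that unadjusted level. Its average log2 change was 1.22 (SE 0.45, p 0.017, adjusted p 0.33), and its Tex10-deficient mean was the higher in 4 of 4 fractions, at 3.37 times the wild-type mean in spermatogonia, 2.45 times in MI, 2.13 times in MII and 3.08 times in spermatids. The log2 change in MI was -0.10 without Tex10-deficient MI replicate 2 and 1.92 without replicate 1. That in spermatids, 1.34 with all libraries, was 0.0061 without Tex10-deficient replicate 2 and 0.24 without wild-type replicate 2. The groups did not overlap in spermatogonia and MII and did in MI and spermatids. In MII the log2 change of Cyp11a1 was -1.45 (SE 0.73, adjusted p 0.43), with a mean of 32.1 ± 15.7 FPKM against 85.1 ± 17.4 FPKM (SD, n = 2), while that of Hsd3b6 was 1.06 (SE 0.90, adjusted p 0.70). The other 7 genes had MII changes between -0.32 and 0.58. Beside them, all 8 spermatocyte markers had lower estimates in Tex10-deficient MII, and their sum was 93.6 and 194 FPKM against 262 and 716 in the wild type. An unadjusted p under 0.05 was reached by 7 of these 8, with a median log2 change of -1.65. All 10 macrophage markers (median -0.97, 0 at that unadjusted level), 5 of 6 Sertoli markers (-0.85, 0) and 6 of 7 spermatid markers (-0.87, 1) had lower estimates too. None of the markers in these 4 lists passed the adjusted threshold, and their part in the values of the 9 genes was not tested. Grouped by the cell type field in place of the title, Tex10-deficient MII would consist of MI replicate 1 and spermatids replicate 1. In it 8 of 9 genes would be called lower, and the share of all genes called in that grouping is not given here.

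**Figure D4:**
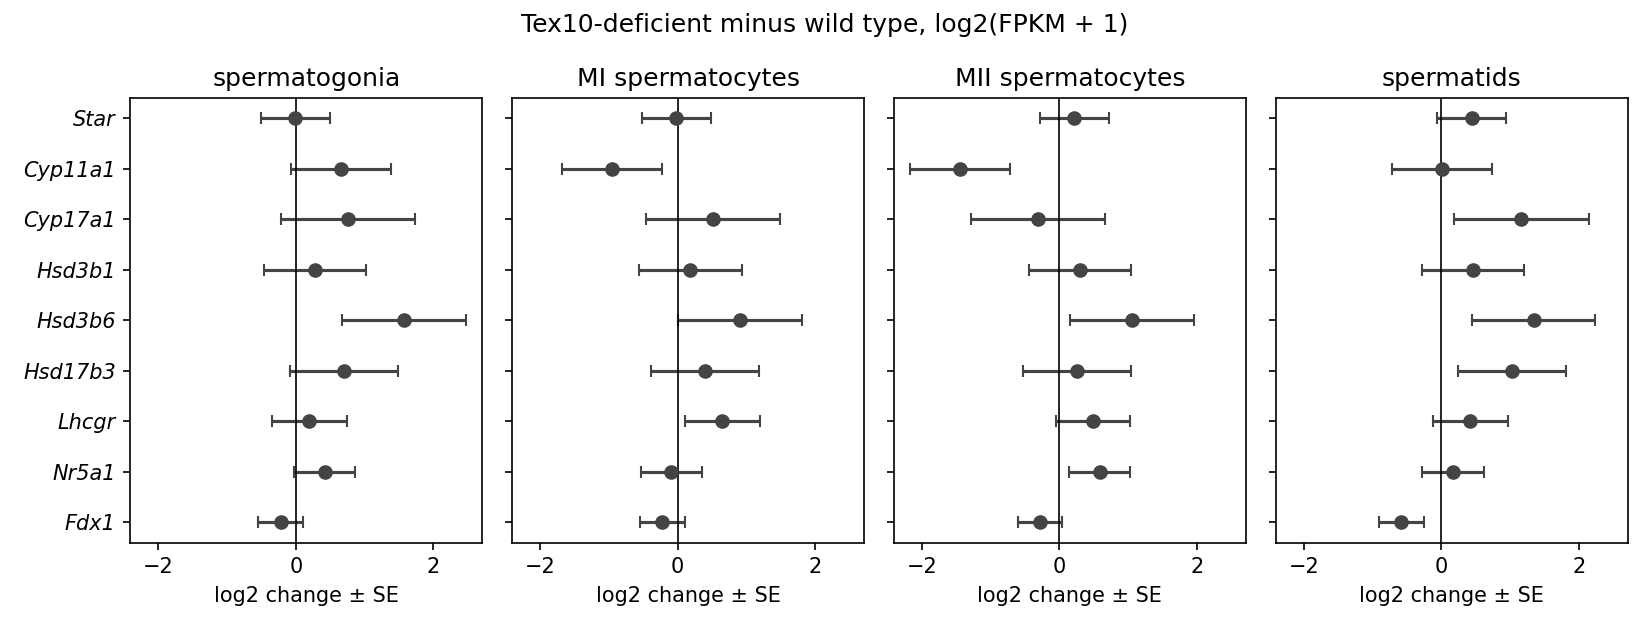
Log2 change from wild type to Tex10-deficient on the log2(FPKM + 1) scale for each gene in each sorted fraction; points are limma estimates and bars are ± SE, from 2 libraries a group. Hsd3b6 lies above 0 in all 4 panels, Cyp11a1 lies at -1.45 in MII and -0.95 in MI, and 0 of the 36 changes passed the adjusted threshold.

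The balance among the enzymes was then compared within libraries, as ratios and shares. In MII, Cyp11a1 made up 17.5% and 14.3% of the summed FPKM of the 9 genes in wild-type libraries and 3.74% and 5.43% in Tex10-deficient ones. Hsd3b6 made up 30.1% and 26.6%, and 45.2% and 48.7%, in the same order. The ratio of Cyp11a1 to Hsd3b6 was 0.583 and 0.539 in wild-type MII and 0.0826 and 0.111 in Tex10-deficient MII. In spermatogonia it was 0.693 and 0.376 against 0.371 and 0.236, in MI 0.212 and 0.873 against 0.0441 and 0.0512, and in spermatids 0.577 and 1.31 against 0.251 and 0.307. The Tex10-deficient ratios lay below the wild-type ratios in 4 of 4 fractions, narrowly so in spermatogonia. Of the 36 ratios among the 9 genes, 1 was without overlap in the same direction in 4 fractions and 3 were in 3 fractions. The share among ratios of all genes was not counted. Averaged over fractions the log2 ratio differed by -2.04, that is 0.243 times the wild-type ratio.

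This ratio was singled out after values had been seen, and it did not pass correction. All 36 ratios among the 9 genes were compared by an exact two-sided permutation test that exchanged genotype labels within fractions (1296 relabellings). It relabels each fraction on its own and so takes the fractions as independent. If same-numbered libraries share an animal or preparation, which the labels do not say, its p-values are too small. Cyp11a1 over Hsd3b6 gave p 0.001543, the smallest these relabellings allow, and a Benjamini-Hochberg adjusted p of 0.0556 over the 36 ratios by this exact test. A single ratio at that smallest p cannot fall under 0.05 after this correction, so the correction could not decide here. The ratios of Cyp11a1 to Hsd17b3 and to Cyp17a1 followed with an adjusted permutation p of 0.0694 each. The comparison was not part of the planned design, the 36 ratios share genes, and the split of reads between Hsd3b6 and Hsd3b1 is uncertain. The ratio of Cyp11a1 to Cyp17a1, which does not rest on that split, was 1.22 and 1.02 in wild-type MII and 0.461 and 0.541 in Tex10-deficient MII. In spermatogonia it overlapped, at 0.682 and 4.92 in the wild type and 0.664 and 1.45 in Tex10 deficiency.

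**Figure D5:**
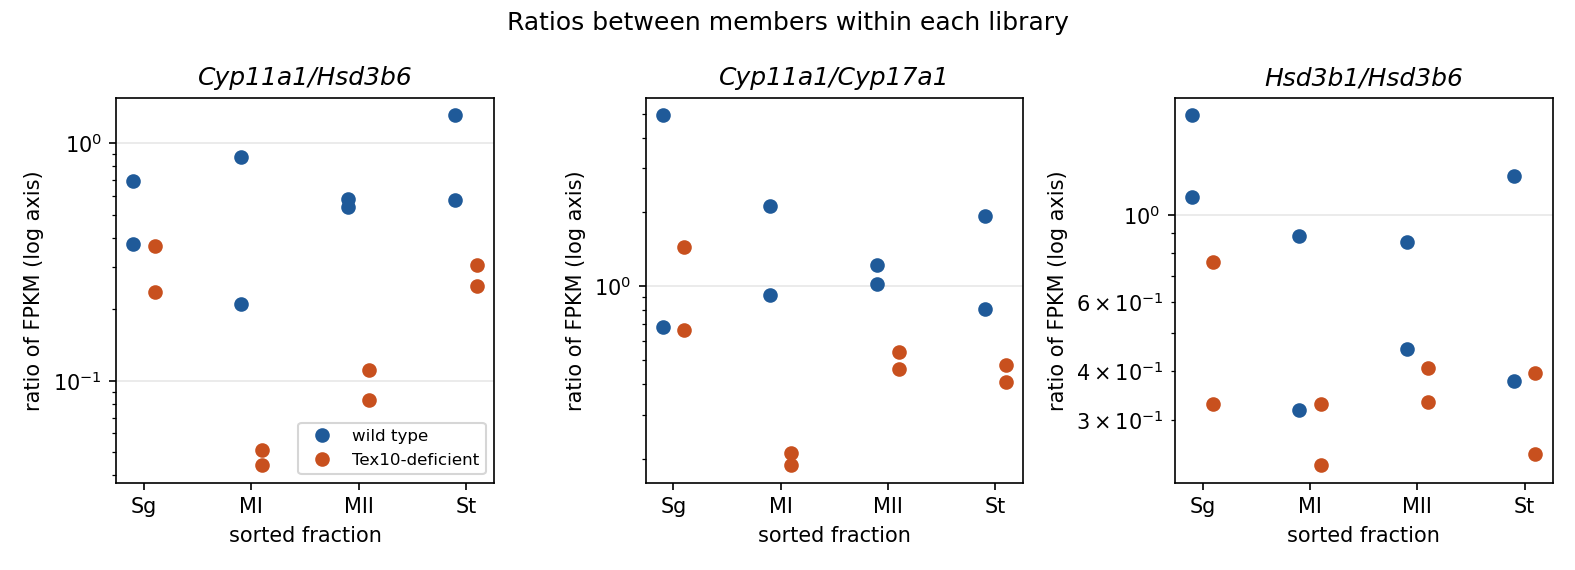
Ratios of FPKM between pairs of the 9 genes (log axis) within each library by sorted fraction, wild type in blue and Tex10-deficient in orange. For Cyp11a1 over Hsd3b6 the Tex10-deficient points lie below the wild-type points in 4 of 4 fractions, in spermatogonia by 0.371 against 0.376. Of the 36 ratios, 1 was without overlap in the same direction in 4 fractions. None of the 36 ratios passed correction, which a single ratio at the smallest possible p could not do alone.

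Across the 16 libraries 8 of the genes followed each other. The Pearson correlation of each gene with the mean of the other 8, on log2(FPKM + 1), was 0.90 for Star, 0.97 for Hsd3b1 and 0.52 for Fdx1. The 10 other genes most like the mean of the 9 were Akr1cl, Sytl4, Itih2, L3mbtl4, Gja1, Dhrs7, Bhmt, Amy1, Aldh1l1 and Zfhx4, with correlations from 0.985 down to 0.970. Akr1cl, of the aldo-keto reductase family, was at 127 to 287 FPKM in MII and 1.95 to 23.0 FPKM elsewhere. Gja1, which encodes the gap junction protein connexin 43, was at 3.81 to 7.07 FPKM in MII and 0.398 to 2.90 elsewhere. These correlations describe a split into 4 MII libraries and 12 others, which all these genes share.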

How the data were processed

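RNA of 16 libraries (4 sorted fractions, 2 genotypes, 2 libraries a group) was analysed. The submitters' processing notes name, without roles, STAR 2.7.6a, Cufflinks 2.2.1, FastQC 0.10.1, cutadapt and Trim Galore 0.6.3, and the build mm10. The deposited values are FPKM with 1 added, as the smallest value of 1 shows, and 1 was taken off. The sources used here do not give strandedness, annotation or any scaling of libraries. 1 gene with a nonnumeric cell was left out. The filter asked for 1 FPKM or more in 2 or more libraries and left 13099 genes. Their log2(FPKM + 1) values went into limma 3.58.1 (R 4.3.3; lmFit, then eBayes with trend), with 8 groups, 8 residual degrees of freedom and p-values adjusted over all genes. Changes on this scale understate those of low genes. The script was tested on simulated data. All 9 members passed the filter, also without the MII libraries.

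The members and gene lists were chosen with earlier results of these data known. All 9 members are named, and from each pathway list genes called with the smallest adjusted p, Insl3 and any gene that fell; a few further markers were named after their values were seen. The 36 ratios and the motifs were added after the data had been seen. Positions are from GENCODE M21 (GRCm38, which mm10 names) and promoters from RefSeq (GRCm38.p6). Alternatives were pseudocounts, filters, scalings, variance settings, replicate blocks, grouping by the cell type field, fewer groups in the fit, and each library left out.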

Additional observations from a re-analysis of the deposited data

How the results depend on the processing

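With groups by title, the changes between fractions held: of 53 called changes of the 9 genes, 44 kept direction and call in all 27 alternatives other than the cell type field, and 0 changed sign. The other 9 were Fdx1 from spermatogonia to MI in both genotypes, Star in wild-type MII against spermatogonia, Cyp11a1 and Cyp17a1 in the Tex10-deficient form of that comparison, and Cyp11a1, Cyp17a1, Hsd17b3 and Fdx1 in Tex10-deficient spermatids against MII, where Cyp17a1 (pseudocount of 0.1, library weights) and Fdx1 (library weights, only the groups compared) were lost in other settings too. The count of genes called higher or lower from spermatogonia to MI in Tex10-deficient cells became 2 with a pseudocount of 0.1, with quantile normalization, with a replicate block within genotype, and with only the groups compared in the fit. Leaving out each library in turn gave 0 to 1 genes for the wild-type change from spermatogonia to MI, 0 to 2 for the Tex10-deficient one and 5 to 9 for Tex10-deficient spermatids against MII. Among 28 pathway and marker genes and Tex10, only Cyb5a and Fdx1l lost their call with groups by title. Quantile normalization moved the median of all genes in the wild-type step from MI to MII from 0.05 to -0.21, and 8 of 9 genes were called higher there as well.

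Whether same-numbered libraries form pairs differed within and between genotypes. Deviations of same-numbered libraries correlated over 0.1 in 6 of 6 pairs of fractions within the wild type (0.143 to 0.358), in 4 of 6 within Tex10 deficiency (-0.0816 to 0.418) and in 10 of 16 between genotypes (-0.217 to 0.308). The labels do not say what a number shares, so no pairing was assumed. A replicate block within genotype kept each count and call given for the 9 genes, apart from the count of 2 above, and gave the average genotype change of Hsd3b6 an adjusted p of 0.052 by limma, against 0.14 to 0.62 in the other settings with groups by title. A replicate block shared by both genotypes gave 8 genes for each step from MI to MII, 9 for each of MII against spermatogonia and 0 for each genotype comparison, and changed no call that the text gives for the 9 genes. The cause of the moves below was not tested.

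Signs of the genotype changes, none of them called with groups by title, were unstable. Among the alternatives with groups by title, 9 of 251 values in spermatogonia, 8 of 250 in MI, 5 of 243 in MII, 12 of 250 in spermatids and 2 of 234 averages had the other sign. Many alternatives, such as variance settings or a library of another fraction left out, cannot change the estimate in a fraction. These shares are therefore not a rate of instability. Hsd3b6 and Hsd17b3 kept their sign throughout in spermatogonia, and Cyp11a1, Fdx1, Hsd17b3 and Lhcgr in MI. In MII Cyp11a1, Hsd17b3, Hsd3b1, Hsd3b6 and Nr5a1 kept it, and in spermatids Fdx1 and Hsd3b6. Of the averages 7 of 9 kept it. Leaving out each library in turn, log2 changes in spermatogonia ran from -0.36 to 0.34 for Star, -0.19 to 1.51 for Cyp11a1, -0.64 to 2.16 for Cyp17a1, -0.14 to 0.70 for Hsd3b1, -0.037 to 0.43 for Lhcgr, -0.024 to 0.86 for Nr5a1 and -0.54 to 0.10 for Fdx1. In MI they ran from -0.32 to 0.29 for Star, -0.27 to 1.31 for Cyp17a1, -0.80 to 1.17 for Hsd3b1, -0.10 to 1.92 for Hsd3b6 and -0.36 to 0.18 for Nr5a1. In MII they ran from -0.33 to 0.77 for Star, -0.71 to 0.081 for Cyp17a1, -0.035 to 1.01 for Lhcgr and -0.58 to 0.020 for Fdx1. In spermatids they ran from -0.23 to 1.12 for Star, -1.24 to 1.28 for Cyp11a1, -0.34 to 2.68 for Cyp17a1, -0.97 to 1.90 for Hsd3b1, -0.57 to 2.64 for Hsd17b3, -0.44 to 1.29 for Lhcgr and -0.48 to 0.82 for Nr5a1. The averages ran from -0.0096 to 0.33 for Star and -0.052 to 0.67 for Hsd3b1. Median-of-ratios scaling gave Star 0.0066 in spermatogonia and 0.0060 in MI. Quantile normalization gave Star 0.0041 in MI and Nr5a1 -0.018 in spermatids, where a pseudocount of 0.1 gave Nr5a1 -0.076 and Cyp11a1 -0.087.

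Grouping by the cell type field moved most results. It called 8 of the 9 genes between genotypes in MII, 7 in the test for a difference between fractions and 8 in the difference of the step from MI to MII. It called 0 from spermatogonia to MI in either genotype and 0 in wild-type MII against spermatogonia. In Tex10-deficient cells it called 2 in MII against MI, 1 in MII against spermatogonia and 0 in spermatids against MII. The shares of all genes called under this grouping are not given here, so these counts cannot be set against them. Genotype changes in MII became -2.71 for Star, -5.43 for Hsd3b1, -4.64 for Hsd3b6, -4.50 for Hsd17b3, -3.55 for Lhcgr and -3.46 for Nr5a1. Others of changed sign were 1.17 for Star and 0.38 for Fdx1 in spermatogonia, 1.10 for Star, 2.44 for Cyp11a1 and 1.52 for Nr5a1 in MI and -0.10 for Cyp11a1 in spermatids. For Star, Cyp11a1, Cyp17a1, Hsd3b1, Hsd3b6, Hsd17b3, Lhcgr and Nr5a1 in this order, the Tex10-deficient log2 changes became -1.75, -3.28, -2.75, -3.89, -3.97, -3.11, -2.67 and -1.97 from MI to MII, where Fdx1 was at -0.034. They became 0.88, 1.65, 2.30, 2.42, 2.35, 1.98, 1.45 and 0.78 from MII to spermatids, and -1.84, -2.50, -2.53, -3.68, -3.05, -2.46, -2.40 and -2.45 for MII against spermatogonia. The log2 ratio of Cyp11a1 to Hsd3b6 lay between -2.29 and -1.65 under its alternatives, which were chosen after seeing the data.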
